A study of Homo sapiens
Mus musculus with 8 samples.

Results

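Histone genes were followed through 10x Chromium single-cell libraries of a mixture of 4 lymphocyte cell lines. The members were all features whose gene symbol begins, after the species prefix, with the letters of the clustered histone genes (HIST followed by a cluster number and H) or with H2AF, H3F or H1F. These were 173 of 60736 genes: 71 clustered and 17 variant genes of 32738 human genes, and 69 clustered and 16 variant genes of 27998 mouse genes. The rule reads gene symbols alone. The match also took in antisense transcripts such as H3f3aos, and it left out the centromeric histone CENPA and its mouse counterpart.

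Histones package DNA into nucleosomes, whose core is built from histones H2A, H2B, H3 and H4 and whose linker DNA is bound by histone H1. The clustered genes are the replication-dependent ones: they are transcribed mainly while DNA is copied, and their mRNAs normally end in a stem-loop bound by SLBP instead of a poly(A) tail. The variant genes lie outside the clusters, and most of them give polyadenylated mRNAs and are expressed through the cell cycle, though the set also holds testis and oocyte genes. Their products replace the canonical histones at particular places, as H2A.Z (H2AFZ and H2AFV) does at promoters, macroH2A (H2AFY) in silent chromatin and H2A.X (H2AFX) around DNA breaks. Lymphoid lines in culture divide often, so that transcripts tied to DNA copying are a usual part of their profiles. The kits compared here capture RNA through its poly(A) tail.

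Every library held the same mixture in equal parts of the human leukemic T cell lines Jurkat and TALL-104 (TALL104 in the labels), the mouse T lymphoma line EL4 and the mouse B cell hybridoma IVA12, with no genetic change or drug given in the labels for any line. TALL-104 is a cytotoxic line that depends on interleukin 2. The 7 libraries with count matrices were 1 of the 3′ v2 kit, 4 of the 3′ v3 kit and 2 of the 5′ v1 kit; a second 3′ v2 library was not analysed here. Cell suspensions differed between kits: 3′ v2 and 5′ v1 each came from a preparation of their own, 3′ v3 replicates 1 and 3 from another and 3′ v3 replicates 2 and 4 from yet another, so that kit and preparation cannot be told apart. Each line is 1 culture, the libraries of 5′ v1 share a preparation while those of 3′ v3 come from 2, and p-values measure only the spread between libraries and preparations, which may be technical.

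Cells were taken with at least 1000 unique molecular identifiers (UMIs), over 80% of them from 1 species, and under 10% mitochondrial UMIs, and were named by cluster from line markers after all histone genes had been left out. The libraries held 24790710 to 251164949 UMIs and 904 to 8870 named cells, and shared 0 to 14 cell barcodes pairwise. Within libraries, 16 of 21 EL4, 13 of 23 IVA12, 14 of 20 Jurkat and 17 of 24 TALL-104 markers were higher in their own line in every library. The clusters were named from these markers, so that the counts describe the named cells and are no check of the names. Of the IVA12 list, Pax5 and H2-Eb1 were higher in EL4-like cells in all 7 libraries, at under 5 CPM, and CD8B of the TALL-104 list was higher in its own line in 1 of 7. The constant-region genes Trac, Trbc1, Trbc2, Igkc, Ighm, Ighg1 and Ighg2b of mouse and TRAC and TRBC1 of human were at 0 UMIs in all sums, so that these markers say nothing about the names. TALL-104-like cells were the smallest group in 6 of 7 libraries, with 41 to 1234 cells a library (in 3′ v3 replicate 2 there were 175, and 145 Jurkat-like cells), and medians of 1986.5 to 2949 UMIs, against medians of 9470 to 35404 in the other lines. The share of mouse UMIs in their sums ran from 0.8% to 14.29%, and its part in the TALL-104 results was not tested. In barcodes under 100 UMIs, which hold free RNA, the human clustered genes summed to 1382 to 2949 CPM, while TALL-104-like cells of both kits with replicates had 347 to 804 CPM, and the part of free human RNA in their clustered level was not tested either. The 52 TALL-104-like cells of 3′ v2 stand apart: 53.8% of them had at least 80% of their marker UMIs from the TALL-104 list, and their summed G2M genes reached 4688 CPM (the usual CPM scale, UMIs relative to the total of the species) against 1464 to 2285 CPM in the other libraries. All levels below are UMIs summed over the cells of a line in a library, as CPM of that species, and are not scaled for gene length.

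In these sums, 5 human clustered, 5 human variant, 1 mouse clustered and 3 mouse variant genes had no UMI at all. Those without a UMI included HIST2H4B, a near-identical copy of HIST2H4A, and testis genes such as HIST1H2BA and H2AFB1. A mean of at least 10 CPM in some line was reached by 16 human and 16 mouse clustered genes and by 9 human and 8 mouse variant genes. Reads that match several near-identical histone copies equally are not assigned to a gene by the counting used, so the split within a family is uncertain.

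The summed level of the clustered genes varied with the kit and with the line. In EL4-like cells it was 649, 1469, 1161 and 1545 CPM in 3′ v3 replicates 1 to 4, 270.4 and 237 CPM in 5′ v1, and 3299 CPM in 3′ v2. In IVA12-like cells it was 1214, 1728, 2188 and 1728 CPM in 3′ v3, 1101 and 1086 CPM in 5′ v1, and 6704 CPM in 3′ v2. In both mouse lines every 3′ v3 library lay above both 5′ v1 libraries and below the 3′ v2 library. Jurkat-like cells gave 2298, 3246, 3174 and 4175 CPM in 3′ v3, 1583 and 1299.9 CPM in 5′ v1, and 6595 CPM in 3′ v2. TALL-104-like cells gave 347, 804, 560.08 and 635 CPM in 3′ v3, 498 and 537 CPM in 5′ v1, and 4355 CPM in 3′ v2. Only in TALL-104-like cells, among the 4 lines, did the 3′ v3 and 5′ v1 libraries overlap.

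The variant genes covered a narrower range, and in both mouse lines each 5′ v1 library lay above all 4 of 3′ v3. In EL4-like cells they summed to 5717 ± 1176 CPM (SD, n = 4) in 3′ v3, 8237 ± 539 CPM (n = 2) in 5′ v1 and 5532 CPM in 3′ v2. IVA12-like cells gave 6065 ± 1649 CPM, 9722 ± 13.2 CPM and 4902 CPM, and Jurkat-like cells 5569 ± 1051 CPM, 6702 ± 123 CPM and 4683 CPM in the same order, with 3′ v3 replicate 1 of Jurkat-like cells between the 5′ v1 libraries. The spread within 3′ v3 followed the preparation, since in each of the 4 lines replicates 1 and 3 were above replicates 2 and 4, by 6815 and 6652 against 4710.3 and 4689 CPM in EL4-like cells. The median mitochondrial share of the cells moved with it: it was 6.56 to 8.70% in replicates 2 and 4 and, in every line, above that of replicates 1 and 3 (4.21 to 7.75%), and its part in these sums was not tested. Clustered genes without their leading member ran opposite to that in each of the 4 lines. In EL4-like cells replicates 1 and 3 had 419 and 540.1 CPM and the other pair 971 and 1097 CPM. The same pairs had 676 and 796 against 1039 and 1105 CPM in IVA12-like cells. Jurkat-like cells had 461 and 735 against 1540 and 1922 CPM, and TALL-104-like cells 152 and 297 against 504 and 444 CPM.

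**Figure D1:**
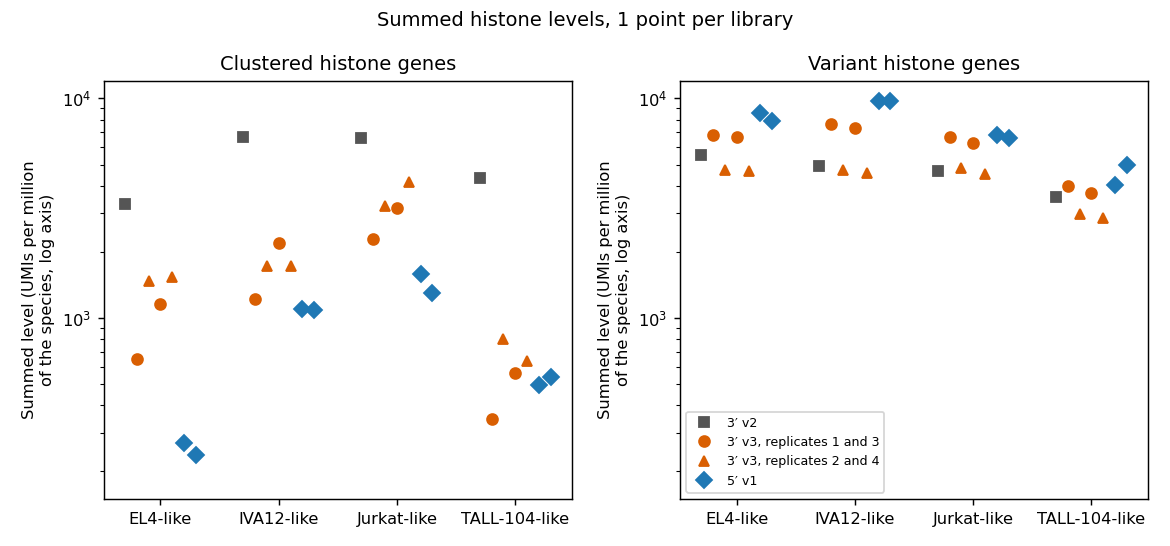
Summed level of the clustered (left) and the variant (right) histone genes in each library, in CPM of the species on a log axis, by line; each point is 1 library, coloured by kit, with circles and triangles for the 2 preparations of 3′ v3. Clustered genes were highest in 3′ v2 in every line and lowest in 5′ v1 in 3 lines, while variant genes of EL4-like, IVA12-like and TALL-104-like cells were highest in 5′ v1.

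A single gene carried most of the clustered UMIs of 3′ v2. In the mouse lines this was Hist1h2ap, an H2A gene: in 3′ v2 it reached 2999.8 CPM, or 90.9% of the sum, in EL4-like cells and 6245 CPM, or 93.2%, in IVA12-like cells. In the human lines it was HIST1H4C (current symbol H4C3), an H4 gene, with 5923 CPM and 89.8% of the sum in Jurkat-like and 3849 CPM and 88.4% in TALL-104-like cells of 3′ v2. In 3′ v3 replicates 1 to 4, HIST1H4C made up 79.9, 52.6, 76.8 and 54.0% of the sum in Jurkat-like cells. It made up 30.1 to 56.1% in TALL-104-like cells. Hist1h2ap made up 35.5, 33.9, 53.5 and 29.0% in EL4-like cells of these libraries, and 44.3, 39.9, 63.6 and 36.0% in IVA12-like cells. In 5′ v1, Hist1h2ap made up 1.5% to 2.2% of the sum in the mouse lines, and HIST1H4C 38.6% and 40.8% in Jurkat-like cells. Without the leading gene, EL4-like cells of 3′ v2 were at 299 CPM, below 3′ v3, with 419 to 1097 CPM, and higher than 5′ v1, with 233 and 265 CPM. The order against 5′ v1 was the opposite in IVA12-like cells, at 459 CPM against 1077 and 1068 CPM, and in Jurkat-like cells, at 672 CPM against 937 and 798 CPM, while TALL-104-like cells had 506 CPM against 423 and 404 CPM. The mean of 3′ v3 minus that of 5′ v1 was 621 CPM in IVA12-like cells, and turned to -168 CPM once Hist1h2ap was left out.

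By histone family, the make-up of the clustered sum differed between libraries of the kits, where kit and preparation cannot be told apart. H3 genes of IVA12-like cells summed to 37.2, 41.5, 56.4 and 48.0 CPM in 3′ v3, and to 195.6 and 206.3 CPM in 5′ v1, where each library was above all 4 of 3′ v3. H2A genes of the same cells gave 629.8, 846.8, 1529 and 796.3 CPM in 3′ v3 against 110.2 and 90.005 CPM in 5′ v1. H4 genes of 3′ v3 summed to 1730 to 2459 CPM in Jurkat-like and 199 to 314 CPM in TALL-104-like cells. In the mouse lines they gave 136 to 157 CPM in IVA12-like and 50.3 to 81.4 CPM in EL4-like cells. H1 genes, which code for the linker histones, followed the 3′ v3 preparation: in EL4-like cells replicates 1 and 3 had 256 and 324 CPM, while 703 and 792 CPM were found in replicates 2 and 4. In Jurkat-like cells the same comparison gave 295 and 413 CPM against 1094 and 1330.2 CPM. Jurkat-like cells of replicates 1 and 3 had medians of 17794 and 17565 UMIs and mitochondrial shares of 6.33 and 4.88%, and those of replicates 2 and 4 had 10088 and 9470 UMIs and 8.70 and 8.48%; the part of either in the H1 sums was not tested.

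**Figure D2:**
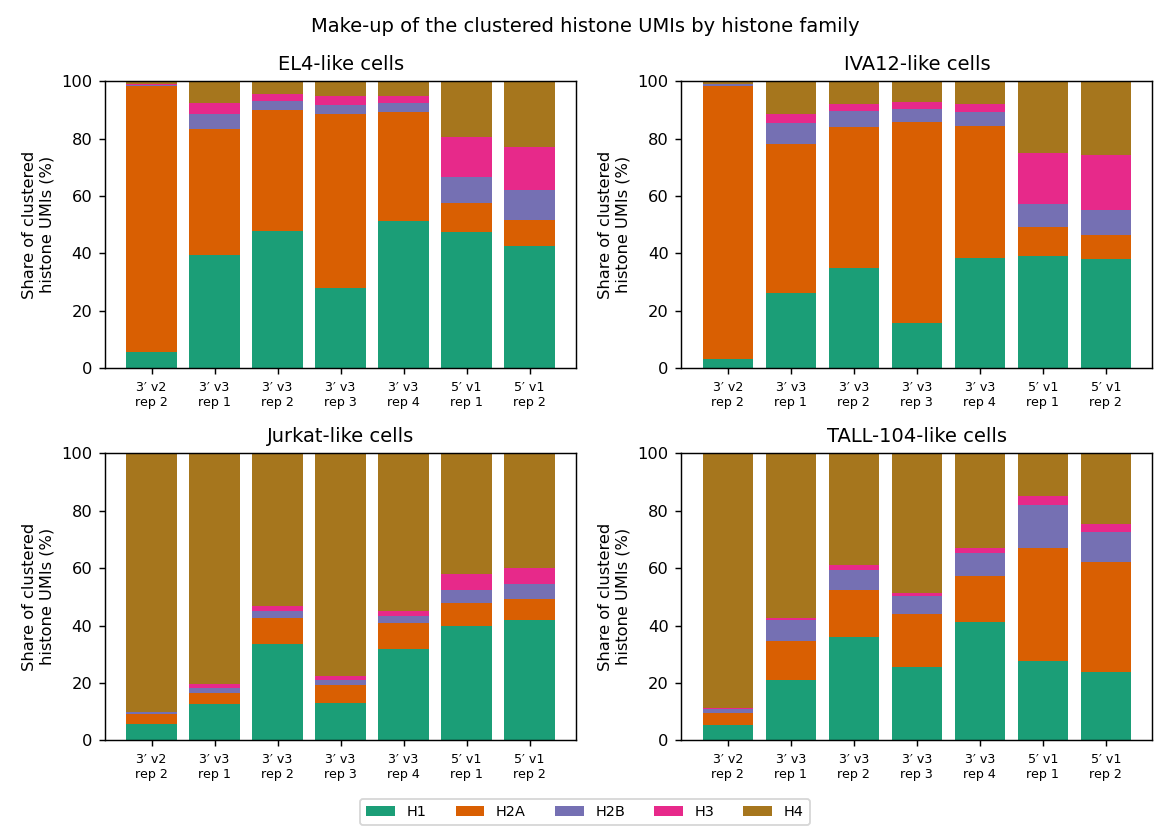
Share of the clustered histone UMIs (percent) that came from H1, H2A, H2B, H3 and H4 genes, by library and line. H2A genes filled most of the bar in 3′ v2 in the mouse lines and H4 genes in the human lines, and H3 and H4 genes took more of the mouse bars in 5′ v1 than in 3′ v3.

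The 3′ v3 and 5′ v1 kits were compared gene by gene in each line, with the quasi-likelihood test of edgeR and p-values adjusted by the Benjamini-Hochberg method over all genes tested (calls at adjusted p under 0.05; log2 fold changes ± SE). In EL4-like cells 25 of 59 clustered genes tested were higher in 3′ v3 and 4 lower, and 1 of 10 variant genes was higher and 4 lower. Of all genes tested there, 35% were called, 18.5% of them higher and 16.6% lower as shares of all genes. The median log2 fold change was 1.30 over the clustered genes and -0.53 over the variant genes, against 0.07 over all genes. With replicates 1 and 3 alone and with replicates 2 and 4 alone, 31 clustered genes were called in the same direction against 5′ v1 by both and 1 in opposite directions. Both comparisons use the same 5′ v1 libraries and reuse the 3′ v3 libraries of the full comparison, here and in the other lines, so that these counts are a description and no independent support. Each sets 1 preparation against 1 other, and its share of calls over all genes is not given here. The counts by preparation thus do not show whether histone genes stand out. Leaving out 5′ v1 replicate 1 or 2, which leaves 1 library whose spread is taken from the other groups, brought the 34 calls down to 14 or 13.

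Hist1h2ap was at 230.05, 498, 621 and 448 CPM in EL4-like cells of 3′ v3 and at 4.92 and 3.61 CPM in 5′ v1, a log2 fold change of 6.64 ± 0.56 (adjusted p = 0.000689, edgeR). Among the clustered linker histone genes, Hist1h1a, Hist1h1b, Hist1h1c and Hist1h1d were higher in 3′ v3, and Hist1h1e was not called (1.60 ± 0.53, adjusted p = 0.0501, edgeR). Hist1h1b had 176, 439, 234 and 507 CPM against 71.1 and 53.0 CPM (2.32 ± 0.38), and Hist1h1d 12.0, 24.7, 11.3 and 25.9 CPM against 7.53 and 6.51 CPM (1.26 ± 0.30). Hist2h2ac (3.50 ± 0.46), Hist1h2ae (2.09 ± 0.26), Hist1h4d (2.84 ± 0.61), Hist1h1a (1.74 ± 0.43) and Hist1h1c (1.84 ± 0.56) rose in 3′ v3 as well. Among genes of lower level, Hist1h2ai (4.37 ± 1.00) and Hist2h3b (3.38 ± 0.77) were called, and the 3′ v3 level of Hist2h2aa1, which has a near-identical neighbour, was 2.84 to 24.2 CPM against 6 UMIs in all EL4-like cells of 5′ v1.

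The 4 clustered genes lower in 3′ v3 were Hist1h3d, Hist1h3e, Hist1h4i and the H2B gene Hist3h2ba (-1.08 ± 0.20), while 5 other H3 genes were higher: Hist1h3b (3.20 ± 0.67), Hist1h3a (3.02 ± 0.54), Hist1h3c (2.56 ± 0.32), Hist2h3c1 (1.59 ± 0.24) and Hist2h3b. Of these, Hist1h3a, Hist1h3b, Hist1h3c, Hist2h3c1 and Hist3h2ba were named for this comparison after their values were seen. Hist1h3e, an H3 gene, was at 4.71, 7.60, 7.15 and 9.44 CPM in EL4-like cells of 3′ v3 and at 21.5 and 18.0 CPM in 5′ v1, with no overlap (-1.53 ± 0.22, adjusted p = 0.00249, edgeR). Hist1h3d changed by -2.20 ± 0.28 and the H4 gene Hist1h4i by -1.49 ± 0.22. Of the variants, H2afx (-1.62 ± 0.17), H2afv (-0.93 ± 0.23), H1f0 (-0.56 ± 0.12), which codes for a linker histone of resting cells, and the oocyte linker gene H1foo (-1.72 ± 0.54, 31 UMIs in 5′ v1) were lower in 3′ v3. H2afy was higher, at 283.7, 283.6, 264.5 and 280.3 CPM against 131.2 and 149.3 CPM (0.93 ± 0.18). H2afz stood at 3028, 1787, 2991 and 1780.0 CPM in 3′ v3 and at 4573 and 4229 CPM in 5′ v1 without passing the test.

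Markers of the cell cycle moved with the EL4 difference. The S-phase genes, which act in DNA copying, summed to 3864, 4502, 3750.5 and 4495 CPM in EL4-like cells of 3′ v3 and 2443 and 2202 CPM in 5′ v1, and 28 of 43 were called higher in 3′ v3 and 1 lower. Of 51 G2M genes, 25 were higher and 2 lower. In IVA12-like cells 4 of 43 S-phase genes were called, all higher in 3′ v3, with sums of 3738 to 3869 CPM against 3155 and 3070.2 CPM. Of 41 S-phase genes in Jurkat-like cells 1 was higher in 3′ v3 and 2 lower. Of 38 in TALL-104-like cells 0 were higher and 4 lower. The part of the cell cycle in the histone differences between kits was not tested. Among genes that make and process histone mRNA, 8 of 20 were higher in EL4-like cells of 3′ v3 and 1 lower, and among histone chaperones 6 of 16 were higher and 2 lower. The lists overlap, so their counts are not independent, here and in the other comparisons. Slbp, Casp8ap2 and Ccne2 of the processing list and Nasp and Chaf1b of the chaperones are also S-phase genes. Anp32e and Hjurp of the chaperones are also G2M genes, and so is Cenpa, whose values are given by name. Slbp itself was higher (1.03 ± 0.32, adjusted p = 0.0421), as were the processing nuclease Cpsf3 (1.85 ± 0.22) and the chaperones Nasp (2.16 ± 0.18) and Hira (1.71 ± 0.32), while Mif4gd (-1.05 ± 0.29), Asf1a (-0.97 ± 0.15) and Ubn1 (-0.73 ± 0.16) were lower. Npat, the transcriptional activator of the clustered genes, was at -0.05 ± 0.18 and Cenpa at -0.50 ± 0.27, neither called.

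IVA12-like cells gave a different balance between the kits. Of 59 clustered genes 5 were higher in 3′ v3 and 15 lower, and of 11 variant genes 3 were lower and none higher, with 8.74% of all genes called (4.07% higher and 4.68% lower). The median log2 fold change was -0.35 over the clustered and -0.49 over the variant genes, against 0.02 over all genes. With mitochondrial UMIs held under 5% the clustered median turned to 0.29. That limit kept 162 of 611, 39 of 389, 1182 of 1615 and 53 of 832 cells in 3′ v3 replicates 1 to 4. In 5′ v1 it kept 455 of 923 and 130 of 445 cells. The fit thus rests on fewer and other cells, and the part of this in the change of sign was not tested. By 3′ v3 preparation, 34 clustered genes were called in the same direction by both and 2 in opposite directions. Leaving out 5′ v1 replicate 1 or 2 left 1 call each.

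Hist1h3e showed the contrast between kits in IVA12-like cells with no overlap: 11.1, 12.0, 16.0 and 14.8 CPM in 3′ v3 against 117 and 126 CPM in 5′ v1 (-3.14 ± 0.21, adjusted p = 0.00172, edgeR). The H4 gene Hist4h4 was at 38.3, 26.8, 40.5 and 27.9 CPM against 124.9 and 124.2 CPM (-1.85 ± 0.28). Hist1h3d (-3.28 ± 0.32), Hist1h3f (-2.12 ± 0.26), Hist2h4 (-1.34 ± 0.17), Hist1h4k (-2.14 ± 0.33) and Hist1h2bk (-2.34 ± 0.42) were lower in 3′ v3, and so were H2afv (-1.02 ± 0.17), H2afx (-0.98 ± 0.19) and H1f0 (-1.27 ± 0.22). The 5 genes higher in 3′ v3 were Hist1h2ap (5.30 ± 0.60), Hist1h2ae (1.42 ± 0.24), Hist1h2ai (3.66 ± 0.81), Hist2h3b (3.21 ± 0.69) and Hist2h2aa1, the last with 8 UMIs in all IVA12-like cells of 5′ v1. Hist1h2ap had 538, 690, 1393 and 622 CPM in 3′ v3 and 24.5 and 18.0 CPM in 5′ v1. Of the other lists, 3 of 16 chaperones and 2 of 20 processing genes were higher in 3′ v3, with Nasp (1.46 ± 0.21), Hira (1.22 ± 0.21) and Srrt (0.91 ± 0.15) the most changed, and neither Slbp (0.43 ± 0.26), Npat (-0.01 ± 0.26) nor Cenpa (-0.24 ± 0.26) was called.

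In Jurkat-like cells 6 of 53 clustered genes were higher in 3′ v3 and 7 lower, and 1 of 11 variant genes was higher and 2 lower, where 15.9% of all genes were called (7.68% higher, 8.25% lower). The median was -0.33 over the clustered, -0.46 over the variant and 0.02 over all genes. Within the preparations the clustered median was -0.49 with replicates 1 and 3 and 0.23 with replicates 2 and 4. Some Jurkat-like clusters of 3′ v3 had many TALL-104 markers raised. These were 13 in a cluster of 374 cells in replicate 1 and 17 in one of 1017 cells in replicate 3. Jurkat-like clusters of 5′ v1 had 0 to 2 raised, and the part of this was not tested. HIST1H4C was at 1838, 1706, 2438 and 2252 CPM in 3′ v3 and 646 and 502 CPM in 5′ v1 (1.78 ± 0.33, adjusted p = 0.0143, edgeR), with every 3′ v3 library above both of 5′ v1. The H2A genes HIST1H2AJ (3.56 ± 0.70), HIST1H2AM (3.41 ± 0.58) and HIST2H2AA3 (3.73 ± 0.67), and the linker variant H1FX (1.15 ± 0.26), were higher too. HIST2H4A had 189 UMIs in 3′ v3 and 1 UMI in 5′ v1, and its copy HIST2H4B had none in either.

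Lower in 3′ v3 were HIST3H2A (-2.85 ± 0.35), HIST1H2AE (-3.01 ± 0.33), HIST1H2BM (-2.72 ± 0.37), HIST2H3D (-3.52 ± 0.67), the replacement H3 gene H3F3C (-4.29 ± 0.48) and H2AFX (-0.77 ± 0.20). H3F3C had 14 UMIs in 3′ v3 and 105 in 5′ v1. By 3′ v3 preparation, 22 clustered genes of Jurkat-like cells were called in the same direction by both and 2 in opposite directions. Without 5′ v1 replicate 1 none was called, and without replicate 2 there were 4 calls. The linker gene HIST1H1B lay on either side of 5′ v1 by preparation, since replicates 1 and 3 had 65.6 and 78.6 CPM and the other pair 379.9 and 469.2 CPM, against 186.8 and 171.1 CPM in 5′ v1. Of the other lists, HIRA (1.73 ± 0.21), NASP (1.42 ± 0.29) and the histone mRNA decay factor UPF1 (1.04 ± 0.26) were higher in 3′ v3. SLBP (-0.57 ± 0.38), NPAT (0.05 ± 0.19) and CENPA (-0.44 ± 0.33) did not pass the test.

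TALL-104-like cells allowed the test of 12 clustered and 9 variant genes, of which HIST3H2A was lower in 3′ v3 and H1FX higher, where 7.21% of all genes were called (3.75% higher and 3.45% lower). HIST3H2A, an H2A gene outside the main cluster, was at 3.52, 8.04, 5.67 and 2.72 CPM in 3′ v3 against 121.5 and 114.0 CPM in 5′ v1 (-4.42 ± 0.41, adjusted p = 2.82e-06, edgeR), or 24 UMIs against 55. H1FX had 278, 223, 242 and 172 CPM against 90.2 and 85.5 CPM (1.49 ± 0.40), in the same direction as in Jurkat-like cells. Leaving out either 5′ v1 library left 1 call. The sums of 5′ v1 rest on 76 and 41 cells here. SLBP was at -0.01 ± 0.36, NPAT at 0.65 ± 0.46 and CENPA at -1.01 ± 0.75.

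**Figure D3:**
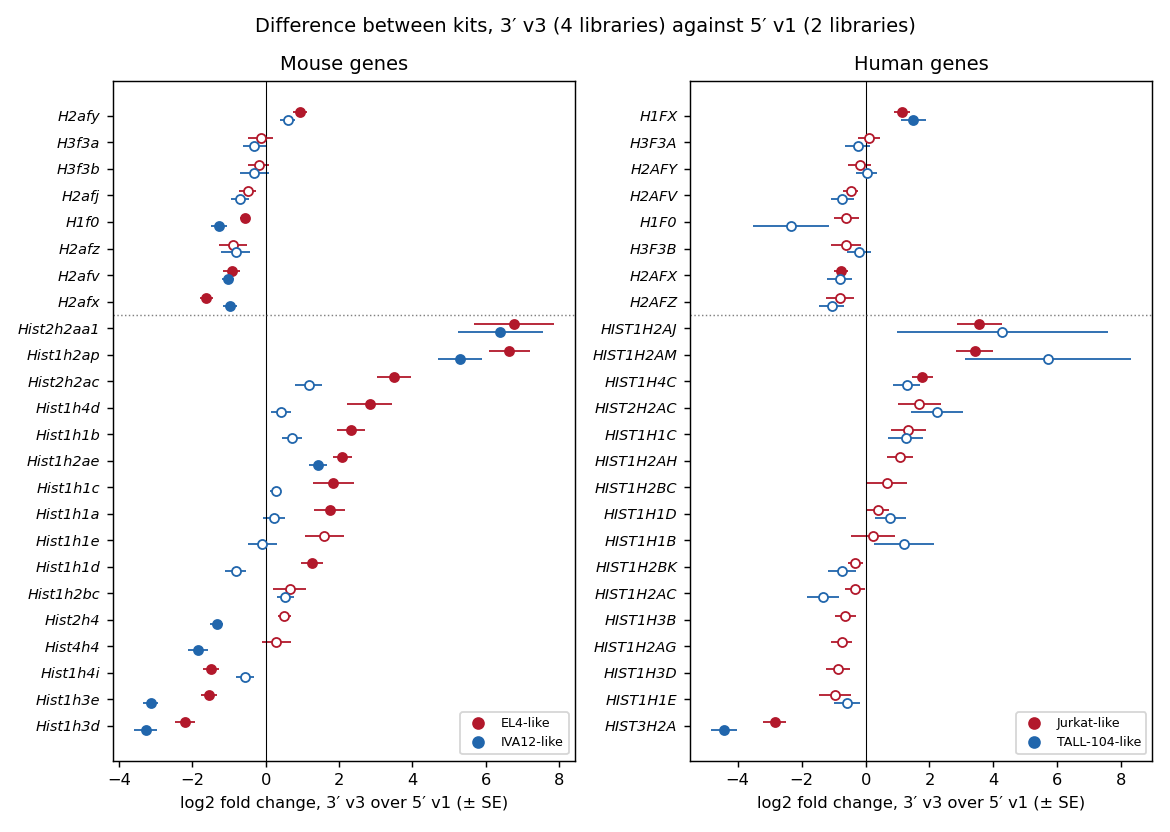
Log2 fold change of 3′ v3 over 5′ v1 (± SE, edgeR; 4 against 2 libraries) for the histone genes with a mean of at least 10 CPM, variant genes above the dotted line and clustered genes below it; filled points passed adjusted p under 0.05. Hist1h2ap and Hist2h2aa1 lay far to the right in both mouse lines, Hist1h3d and Hist1h3e to the left, and the linker genes Hist1h1a to Hist1h1e were further right in EL4-like than in IVA12-like cells.

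Within libraries, clustered genes called between the mouse lines were more often higher in IVA12-like cells. Of 60 clustered genes tested with the library as a block, 9 were higher in EL4-like cells and 30 in IVA12-like cells, and of 11 variant genes 3 were higher in EL4-like and 7 in IVA12-like cells. The clustered counts were 16 and 26 in 3′ v3 alone and 5 and 31 without 3′ v3 replicate 4. Of all genes, 77.7% were called (38.7% higher in EL4-like and 39% higher in IVA12-like cells), a larger share than that of the histone genes, of which 49 of 71 were called. The median log2 fold change was -0.65 over the clustered and -0.63 over the variant genes, against -0.01 over all genes. The summed clustered level was higher in IVA12-like cells in 7 of 7 libraries, by 4.07 and 4.58 times in 5′ v1 and 2.03 times in 3′ v2. In 3′ v3 this ratio split by preparation, at 1.87 and 1.89 in replicates 1 and 3 and at 1.18 and 1.12 in replicates 2 and 4.

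The H2B gene Hist1h2bc separated the mouse lines most among the better expressed genes. It stood at 1.06, 1.91 and 3.41 CPM (lowest, median and highest of 7 libraries) in EL4-like cells and at 42.5, 52.0 and 67.9 CPM in IVA12-like cells, with no overlap (-4.68 ± 0.16, adjusted p = 2.11e-09, edgeR). The linker gene Hist1h1c was lower in EL4-like cells in each of the 7 libraries (-2.77 ± 0.29), and Hist1h1d (-1.24 ± 0.31) and Hist1h1e (-1.11 ± 0.24) were lower as well. Hist1h1a ran the other way, with 6.17 to 39.9 CPM in EL4-like cells against 1.05 to 3.29 CPM in IVA12-like ones (3.01 ± 0.24). The linker genes thus split between the lines, with Hist1h1a in 1 direction and Hist1h1c, Hist1h1d and Hist1h1e in the other.

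Other clustered genes higher in IVA12-like cells were Hist1h2al (-5.01 ± 0.41), Hist1h2ag (-2.51 ± 0.21), Hist4h4 (-1.86 ± 0.31), Hist1h4i (-1.85 ± 0.19), Hist2h4 (-1.61 ± 0.29), Hist1h3e (-1.38 ± 0.28), Hist1h3d (-1.36 ± 0.20), Hist1h2ap (-1.12 ± 0.21), Hist1h2ae (-1.06 ± 0.13) and Hist2h2aa1 (-0.54 ± 0.16). Higher in EL4-like cells were Hist3h2ba (4.89 ± 0.38; 583 UMIs against 14), Hist1h2bm (2.59 ± 0.36), Hist1h2an (1.68 ± 0.28) and Hist2h2be (1.59 ± 0.21). Among variants, H2afj was higher in IVA12-like cells in every library, at 822 to 1682 CPM against 271 to 418 CPM (-1.61 ± 0.11). H2afx (-1.11 ± 0.12), H2afv (-0.79 ± 0.07), H1f0 (-0.63 ± 0.14) and H3f3a (-0.21 ± 0.06) were higher in IVA12-like cells, and H2afy (0.59 ± 0.08), H3f3b (0.49 ± 0.11) and H2afz (0.34 ± 0.07) in EL4-like cells. The linker variant H1fx had 1 UMI in EL4-like and 74 UMIs in IVA12-like cells.

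The other histone lists were balanced between the mouse lines. Of 20 synthesis and processing genes 6 were higher in EL4-like and 7 in IVA12-like cells, of 16 chaperones 6 and 4, of 43 S-phase genes 17 and 13, and of 52 G2M genes 21 and 18. The cyclin Ccne2 (-2.30 ± 0.10), the H4 gene activator Hinfp (-1.44 ± 0.14) and Zfp473 (-1.39 ± 0.18) were higher in IVA12-like cells, and the chaperone Asf1b (1.17 ± 0.07), Cdk2 (0.83 ± 0.09) and Casp8ap2 (0.78 ± 0.07) in EL4-like cells. Slbp (-0.03 ± 0.10) and Npat (0.14 ± 0.07) were not called, and Cenpa was higher in IVA12-like cells (-0.78 ± 0.07).

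The size of the mouse line difference differed between 3′ v3 and 5′ v1, where kit and preparation cannot be told apart. The log2 fold change of EL4-like over IVA12-like cells was compared between 3′ v3 and 5′ v1 in 1 model with the library as a block. It was called different for 39 clustered genes that stood relatively higher in EL4-like cells of 3′ v3 and for 1 in the other direction, of 60 tested, and for 3 of 11 variant genes, where 29.9% of all genes were called. The median difference was 1.54 over the clustered genes and 0.18 over the variant genes, against 0.04 over all genes. The S-phase list moved with it, with 27 of 43 genes in the same direction and 1 in the other and a median of 0.50, and its part was not tested.

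The linker gene Hist1h1b changed sign between kits, from 0.92 (EL4-like higher) in 3′ v3 to -0.65 in 5′ v1, a difference of 1.57 ± 0.12 (adjusted p = 3.62e-05, edgeR). Hist4h4 went from -1.20 to -3.28 (2.07 ± 0.14), Hist1h1d from -0.64 to -2.71 (2.07 ± 0.14) and Hist2h2ac from 0.55 to -1.76 (2.31 ± 0.17). The exception among clustered genes was Hist1h4i, at -2.29 in 3′ v3 and -1.35 in 5′ v1 (-0.94 ± 0.12). Among variants H2afx was at -1.26 in 3′ v3 and -0.61 in 5′ v1. The comparison rests on 2 libraries of 5′ v1, made from a preparation of their own.

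**Figure D4:**
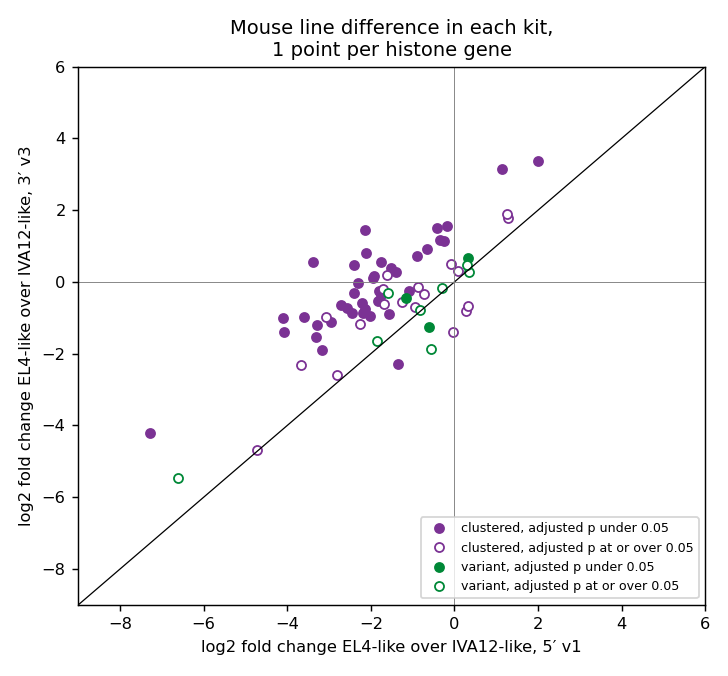
Log2 fold change of EL4-like over IVA12-like cells in 5′ v1 (horizontal) and in 3′ v3 (vertical), 1 point per mouse histone gene; the diagonal marks equal values and filled points had an adjusted p under 0.05 for the difference. Of the 60 clustered genes, 39 had filled points above the diagonal and 1 below it, and 3 of 11 variant points were filled.

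In the human lines the clustered genes were higher in Jurkat-like cells. Of 33 clustered genes tested 21 were higher in Jurkat-like and 3 in TALL-104-like cells, and of 10 variant genes 7 and 3, where 63.9% of all genes were called (34.7% higher in Jurkat-like and 29.2% higher in TALL-104-like cells). The median log2 fold change was 2.17 over the clustered and 0.73 over the variant genes, against 0.10 over all genes. The summed clustered level was higher in Jurkat-like cells in 7 of 7 libraries, by 4.04 to 6.63 times in 3′ v3, 3.18 and 2.42 times in 5′ v1 and 1.51 times in 3′ v2. Cell cycle genes moved with it: 39 of 41 S-phase genes and 51 of 51 G2M genes were higher in Jurkat-like cells and 1 S-phase gene lower, and their part was not tested. Without the pair of 3′ v3 libraries with the most mouse UMIs in TALL-104-like sums the calls went from 34 to 26, and in the 5′ v1 libraries alone to 12.

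HIST1H4C was at 502, 1838 and 5923 CPM in Jurkat-like cells and 74.5, 194 and 3849 CPM in TALL-104-like cells (lowest, median and highest of 7 libraries), higher in Jurkat-like cells within each library (2.59 ± 0.24, adjusted p = 5.84e-09, edgeR). The linker gene HIST1H1B was at 51.2 to 469 CPM against 4.40 to 32.2 CPM (3.61 ± 0.26), while HIST1H1D (2.25 ± 0.16), HIST1H1E (0.86 ± 0.19) and HIST1H1C (0.79 ± 0.15) differed less. HIST1H3G (4.64 ± 0.58; 2 UMIs in TALL-104-like cells), HIST1H3B (3.77 ± 0.51; 4 UMIs), HIST1H2AI (3.21 ± 0.61; 3 UMIs), HIST1H2AJ (3.11 ± 0.38), HIST1H2AH (2.39 ± 0.44), HIST1H2AM (2.32 ± 0.25), HIST1H2BC (2.29 ± 0.38), HIST1H2AG (2.26 ± 0.43) and HIST1H3D (1.77 ± 0.32) were higher in Jurkat-like cells as well. The fold changes with a few UMIs on 1 side depend on the model's prior count. HIST2H2BF had 542 UMIs in Jurkat-like and none in TALL-104-like cells, at least 6.85-fold higher against a floor of 3 UMIs over the 7 libraries together.

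TALL-104-like cells were higher in H2AFJ, HIST3H2A, HIST1H2BK, HIST1H2AC, H2AFY2 and H3F3B. H2AFJ, which codes for the variant H2A.J, was at 33.3 to 88.8 CPM in TALL-104-like cells, 433 UMIs in all, and at 0 to 0.78 CPM in Jurkat-like cells, 27 UMIs in all, with no overlap (-8.78 ± 0.31, adjusted p = 5.36e-16, edgeR). It was called in each of the 17 alternative fits, which reuse the same libraries and are no independent support. HIST3H2A was higher in TALL-104-like cells in 6 of 7 libraries and had no UMI there in 3′ v2 (-2.82 ± 0.35). H2AFY2, a macroH2A gene, had 0 to 15.8 CPM against 0 to 1.83 CPM (-3.12 ± 0.43), HIST1H2BK 6.93 to 51.0 CPM against 7.01 to 10.3 CPM (-1.55 ± 0.23) and HIST1H2AC 6.79 to 51.0 CPM against 2.25 to 17.5 CPM (-1.11 ± 0.29). H3F3B was slightly higher (-0.72 ± 0.15) and H3F3A, which codes for the same protein, lower (0.79 ± 0.14).

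Of the remaining variants, H2AFZ (1.69 ± 0.15), H1F0 (2.87 ± 0.37; 18 UMIs in TALL-104-like cells), H2AFY (0.98 ± 0.16), H2AFV (0.74 ± 0.16), H1FX (0.71 ± 0.18) and H2AFX (0.59 ± 0.18) were higher in Jurkat-like cells. H2AFZ stood at 882 to 2295 CPM in Jurkat-like and 233 to 803 CPM in TALL-104-like cells without overlap. Of 19 synthesis and processing genes 12 were higher in Jurkat-like cells and 2 lower, and of 17 chaperones 10 and 2. The CENPA chaperone HJURP (2.46 ± 0.31), CHAF1A (2.00 ± 0.23), CDK2 (1.84 ± 0.20), SLBP (0.65 ± 0.16) and CENPA (2.89 ± 0.24) were higher in Jurkat-like cells, and NAP1L4 (-0.75 ± 0.15), NPAT (-0.51 ± 0.17) and MIF4GD (-0.48 ± 0.14) in TALL-104-like cells. No histone gene had a human line difference that differed between 3′ v3 and 5′ v1 at adjusted p under 0.05 (edgeR, 0 of 42 clustered and 0 of 11 variant genes), where 1.56% of all genes were called. TALL-104-like sums of 5′ v1 held only 127 and 113 clustered UMIs. The SE of the difference was 6.67 for HIST1H3B, 8.27 for HIST1H3G and 0.41 for HIST1H4C. The lack of calls therefore does not show that the human line difference was equal in both kits.

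Cells of at least 5000 UMIs were then divided within each library and line into tertiles by their share of UMIs from the S-phase genes, none of which is a histone gene, and the top tertile was compared with the bottom one with the library as a block. TALL-104-like cells were too shallow for this. In Jurkat-like cells the summed clustered level rose from the bottom to the top tertile in 7 of 7 libraries. It went from 1153 to 3292, 1185 to 5200, 1519 to 4640 and 1309.8 to 6975 CPM in 3′ v3 replicates 1 to 4, from 699.8 to 2388 and 630.03 to 2137 CPM in 5′ v1, and from 4159 to 9552 CPM in 3′ v2. Of 49 clustered genes 41 were higher in the top tertile and none lower, where 40.1% of all genes were called, 20.1% higher and 19.9% lower. The median log2 fold change was 1.35 over the clustered genes, -0.04 over the variant genes and -0.01 over all genes.

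The Jurkat clustered genes rose in all 5 families. The linker genes HIST1H1B (2.24 ± 0.07, adjusted p = 5.05e-28, edgeR), HIST1H1D (2.18 ± 0.04), HIST1H1C (1.91 ± 0.07) and HIST1H1E (1.67 ± 0.07) rose with HIST1H2BM (3.54 ± 0.35), HIST1H2AB (2.45 ± 0.23), HIST1H2AH (2.21 ± 0.13), HIST1H2AM (1.85 ± 0.08), HIST1H2AJ (1.68 ± 0.08), HIST1H3D (1.66 ± 0.09), HIST2H2AC (1.65 ± 0.09) and HIST1H4C (1.64 ± 0.06). Smaller rises were those of HIST1H2AG (1.30 ± 0.10), HIST1H3B (1.19 ± 0.11), HIST1H2BC (1.00 ± 0.13) and HIST1H2AC (0.43 ± 0.13). The variants moved little: H1FX (0.26 ± 0.04) and H2AFZ (0.20 ± 0.04) rose, and H2AFV fell by 0.09 on the log2 scale (SE 0.04). Median UMIs per cell of the bottom and top tertiles differed most in 3′ v2, at 15472.5 and 12945, and in 3′ v3 replicate 4, at 9202 and 10984, and the part of depth in the rise was not tested.

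The mouse lines showed smaller rises. In IVA12-like cells 23 of 50 clustered genes were higher in the top tertile and 2 lower, where 37.1% of all genes were called, 19.9% higher and 17.2% lower, and the summed level rose 1.015 times in 3′ v2 and 1.45 to 1.88 times in the other 6 libraries. In EL4-like cells 8 of 49 were higher and 4 lower, where 37.1% of all genes were called, 19.8% higher and 17.4% lower, a share of higher calls below the background, and the sum rose 1.23 to 1.63 times. Tertiles by the share of G2M genes, which were not tested, gave clustered sums 1.44 to 2.43 times higher in the top tertile in EL4-like cells, more than by S-phase share in 6 of 7 libraries, and 1.10 to 1.83 times in IVA12-like cells. In Jurkat-like cells the top G2M tertile was 2.01 to 4.51 times above the bottom one, but the middle tertile was the highest in 7 of 7 libraries, as with 876, 3207 and 2456 CPM from bottom to top in 3′ v3 replicate 1. Median UMIs per cell were higher in the top than in the bottom G2M tertile in every library of the 3 lines, at 34682.5 against 25206 in EL4-like and 43640.5 against 29424.5 in IVA12-like cells of that library, and the part of depth was not tested. The median log2 fold change over the clustered genes was 0.39 in IVA12-like and 0.06 in EL4-like cells, against -0.01 and -0.0049 over all genes. The response of the mouse lines was compared in 1 model, in which 8 of 56 clustered and 3 of 10 variant genes rose more, or fell less, in IVA12-like cells and none did so in EL4-like cells, where 6.85% of all genes were called. From bottom to top tertile the S-phase sum went from 2652 to 5190 CPM in EL4-like and 2313 to 5388 CPM in IVA12-like cells of 3′ v3 replicate 1. In 5′ v1 replicate 1 it went from 1283 to 3954 and from 1615 to 4907 CPM. The part of these unlike ranges was not tested.

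In both mouse lines Hist1h1a (1.51 ± 0.25 in IVA12-like and 0.84 ± 0.10 in EL4-like cells), Hist1h1b (1.08 ± 0.08 and 0.81 ± 0.06), Hist1h2ap (0.68 ± 0.07 and 0.61 ± 0.05), Hist1h1e (0.80 ± 0.08 and 0.43 ± 0.05), Hist2h4 (0.92 ± 0.12 and 0.59 ± 0.12) and Hist4h4 (0.27 ± 0.08 and 0.60 ± 0.11) rose. Hist1h4h (-0.56 ± 0.15 and -0.52 ± 0.13) and Hist1h4d (-0.36 ± 0.11 and -0.45 ± 0.11) were lower in the top tertile of both. Hist1h4i rose in IVA12-like cells (0.96 ± 0.08) and was lower in EL4-like cells (-0.32 ± 0.07). Hist2h3c1 (1.47 ± 0.21), Hist1h1d (1.04 ± 0.11), Hist1h1c (0.89 ± 0.06) and Hist1h2bc (0.70 ± 0.07) rose in IVA12-like cells, and for these the difference from EL4-like cells passed its own test. Hist1h2ag (1.04 ± 0.15) and Hist1h3d (0.38 ± 0.11) were called in IVA12-like cells and Hist1h3b (0.70 ± 0.14) and Hist2h2aa1 (0.37 ± 0.10) in EL4-like cells, but their difference between the lines did not pass (adjusted p of 0.138, 0.815, 0.911 and 0.932 in this order, edgeR).

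H2afx fell by 1.18 on the log2 scale (SE 0.06) in the top tertile of EL4-like cells and was not called in IVA12-like cells. H1f0 (-0.84 ± 0.04), Hist3h2ba (-0.91 ± 0.20) and H2afv (-0.21 ± 0.04) were lower there too, while H2afz (0.16 ± 0.04 in EL4-like and 0.26 ± 0.03 in IVA12-like cells) and H3f3b (0.15 ± 0.04 and 0.18 ± 0.04) were higher in both lines and H2afy (0.13 ± 0.04) in IVA12-like cells. G2M genes, which act in mitosis, were mostly lower in the top tertile, in 38 of 51 in EL4-like, 34 of 52 in IVA12-like and 44 of 51 in Jurkat-like cells, and 4, 9 and 1 were higher. Chaperones were higher in 9 of 14, 10 of 14 and 6 of 15, and lower in 0, 0 and 3. Synthesis and processing genes were higher in 10 of 17, 9 of 17 and 10 of 17, and lower in 1, 1 and 4.

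The cyclin E gene, which promotes histone transcription through NPAT, was higher in the top tertile of all 3 lines, at 0.95 ± 0.07 for Ccne1 in EL4-like cells, 1.83 ± 0.05 in IVA12-like cells and 2.69 ± 0.11 for CCNE1 in Jurkat-like cells. NPAT itself (Npat in mouse) rose by 0.37 ± 0.06, 0.64 ± 0.06 and 0.48 ± 0.06. The large subunit of the replication chaperone CAF-1 (Chaf1a, CHAF1A) rose by 0.96 ± 0.06, 1.35 ± 0.05 and 1.23 ± 0.06, Cdk2 by 0.97 ± 0.08 and 1.21 ± 0.10 in the mouse lines, and ASF1B by 1.56 ± 0.06 in Jurkat-like cells. Mif4gd was lower in the top tertile of EL4-like (-0.22 ± 0.05) and IVA12-like cells (-0.17 ± 0.05), and ANP32E (-0.50 ± 0.04), NCBP2 (-0.33 ± 0.04) and HINFP (-0.27 ± 0.09) in that of Jurkat-like cells. CENPA (Cenpa in mouse) is not in the histone set but is one of the G2M genes counted above. It was lower in the top tertile of EL4-like (-1.63 ± 0.05), IVA12-like (-0.62 ± 0.04) and Jurkat-like cells (-1.83 ± 0.05).

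**Figure D5:**
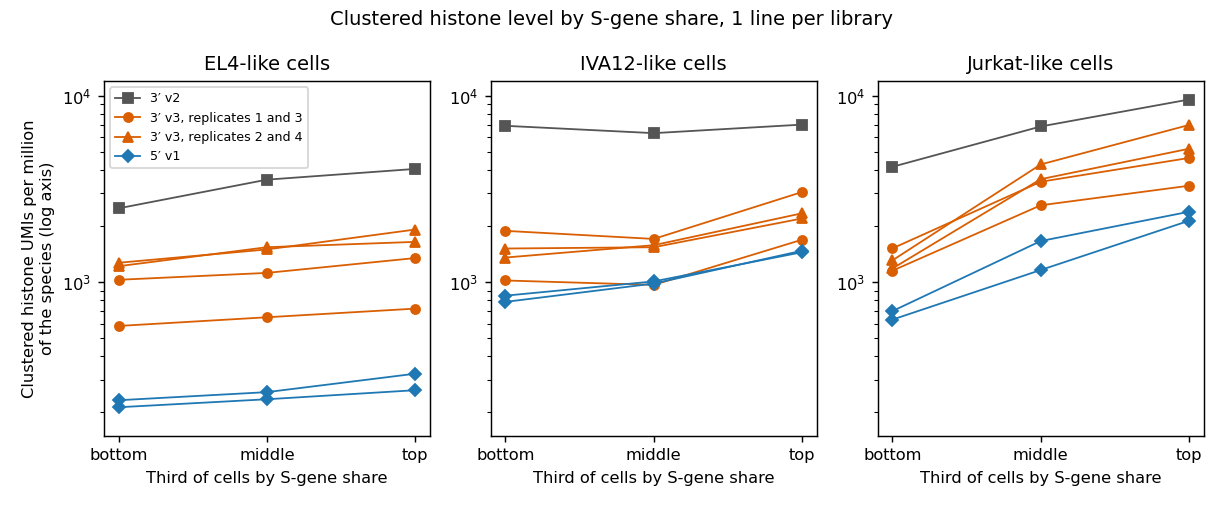
Summed level of the clustered histone genes (CPM of the species, log axis) in the bottom, middle and top tertile of cells by their share of S-phase UMIs, with 1 line per library. Every Jurkat line climbs, by 2.30 to 5.32 times, and the EL4 lines climb by 1.23 to 1.63 times.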

How the data were processed

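The deposited matrices hold counts of UMIs per gene and barcode, which the authors made with Cell Ranger 3.0.2 on a combined hg19 and mm10 reference. The submitters' processing notes also name 1.2.0, which in the paper is part of the name of that reference. Per the study's methods, reads were downsampled per library to a common depth per cell before counting, so that the counts do not hold the full sequencing depth. They are whole numbers with no further normalization, and their totals of 24790710 to 251164949 UMIs limit the precision of low genes. Histone genes, lists and comparisons were chosen with earlier results of these data known.

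Cells passed at least 1000 UMIs, over 80% from 1 species and under 10% mitochondrial UMIs. They were clustered per library and species without histone and mitochondrial genes (scanpy 1.11.5; 1000 variable genes, 15 components, 15 neighbours, Leiden resolution 0.5). A cluster was named from at least 3 line markers raised 1.5-fold, and stayed unnamed under 10 cells, where its top 10 genes by fold held more markers of the other line than of its own, where under 50% of its cells had 80% of their marker UMIs from its line (a rule set after seeing the data), or where its median UMIs were under 1/3 of those of its species in the library and no own marker was among those 10 genes; 0 to 1977 cells a library stayed unnamed. Among clusters named Jurkat-like, that of 1017 cells in 3′ v3 replicate 3 had 17 TALL-104 and 15 Jurkat markers raised, and that of 78 cells in replicate 4 had 14 and 13. No doublet caller was run; cells of mixed species, and of over 10 times the median UMIs, were left out.

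Counts were summed per library and line. Tests used edgeR 4.0.16 (R 4.3.3) with TMM factors and its filter on low counts, with the library as a block between lines and tertiles, which share their library, and with 3′ v2 as a group of its own between kits. SE is the fold change divided by the root of F. The tests were checked on simulated data. Tertiles were cut on cells of at least 5000 UMIs, and S-phase genes were left out of the genes tested. Named were members with a mean of at least 10 CPM in a line, up to 5 called members per direction and contrast, up to 3 called genes of the other lists, and SLBP, NPAT and CENPA. Alternatives were DESeq2 1.42.0, RLE factors, no filter, other UMI and mitochondrial limits, naming cell by cell, no block, single kits or preparations, and leaving out each library. RefSeq (GRCh38.p14) gave a current symbol to each of the 88 human members, but not always a distinct one. HIST1H2BD, HIST1H2BE, HIST1H2BF, HIST1H2BG and HIST1H2BI all received H2BC5, so the symbols assigned to these genes are not reliable.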

Additional observations from a re-analysis of the deposited data

Results flagged for a closer look

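Among 106 groups of 4 libraries, 3 held a library whose gap to the nearest of the others was, as a share of the group's range, above Dixon's 95% critical value; chance gives about 1 in 20 such groups. HIST1H2AM stood at 0.880 CPM in TALL-104-like cells of 3′ v3 replicate 1, against 12.06, 10.54 and 12.22 CPM in replicates 2 to 4. The sum of replicate 1 held 1136983 human UMIs, so its level is near the floor. This gene had 48 UMIs in TALL-104-like cells of all libraries together, so that its levels rest on few UMIs. Hist1h2bc stood at 3.41 CPM in EL4-like cells of 3′ v3 replicate 3, against 1.682, 1.963 and 1.912 CPM. Hist2h4 stood at 13.2 CPM in IVA12-like cells of 3′ v3 replicate 2, against 9.869, 10.31 and 9.947 CPM.

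The log2 fold change of EL4-like over IVA12-like cells differed between 3′ v3 and 5′ v1 for 16 named genes by the test of the difference itself (edgeR, adjusted p under 0.05). Given as 3′ v3 minus 5′ v1, so that a positive value means EL4-like cells stood higher against IVA12-like cells in 3′ v3 whatever the size of either fold change, the difference was 2.31 for Hist2h2ac, 2.26 for Hist1h4d, 2.07 for Hist4h4 and for Hist1h1d, 1.85 for Hist2h4, 1.62 for Hist1h1e, and 1.57 for Hist1h1b and for Hist1h3e. It was 1.38 for Hist1h2ap, 1.37 for Hist1h1a, 1.05 for Hist1h3d, 0.697 for H1f0, 0.662 for Hist1h2ae and 0.331 for H2afy. The difference was -0.943 for Hist1h4i and -0.653 for H2afx.

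The log2 fold change between the S-phase tertiles differed between the mouse lines for 8 named genes. IVA12-like minus EL4-like cells gave 1.3 for Hist1h4i, 1.17 for H2afx, 0.926 for Hist1h2bc, 0.858 for Hist1h1d, 0.789 for Hist1h1c, 0.743 for H1f0, 0.386 for Hist1h1e and 0.207 for H2afv.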

How the results depend on the processing

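Of the alternative values of the counts of called histone genes and of the summed differences, 185 stayed within the limits set (1.5 times for counts, 1 SD for sums) and 33 moved. For the sums, leaving out a single 3′ v3 library cannot shift the difference by 1 SD of those libraries. The 3′ v2 library is not part of the difference at all. These values stayed by construction, so the 185 are no measure of how stable the results are. Without the library as replicate block, the calls were 18 between the human lines, and 1, 3 and 6 between tertiles of EL4-like, IVA12-like and Jurkat-like cells. With mitochondrial UMIs under 5%, they were 14 between kits in IVA12-like cells, and 12 and 24 between tertiles of IVA12-like and Jurkat-like cells. This limit left 39 and 53 IVA12-like cells and 10 and 32 Jurkat-like cells in 3′ v3 replicates 2 and 4. Each tertile needed at least 10 cells, so Jurkat-like cells of replicate 2 dropped out of the tertile fit. The 5′ v1 libraries alone, an alternative chosen after seeing the data like the fit without the pair of 3′ v3 libraries, gave 12 between the human lines. Between kits, 3′ v3 replicates 1 and 3 gave 44 calls in IVA12-like cells and 43 in Jurkat-like ones, replicates 2 and 4 gave 53, 39 and, in TALL-104-like cells, 12, and no filter on low counts gave 5 in TALL-104-like cells. The cause was not tested. Shares of all genes called in these alternative fits are not given, so the counts do not show whether histone genes stand out.

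Leaving out each library in turn gave 46 to 51 calls between the mouse lines, 29 to 41 between the human lines, 13 to 37, 1 to 23, 0 to 22 and 1 to 5 between kits in EL4-like, IVA12-like, Jurkat-like and TALL-104-like cells, and 16 to 18, 23 to 30 and 37 to 46 between tertiles. Without the leading gene, the summed difference of 3′ v3 minus 5′ v1 in CPM was 507 for clustered and -515 for variant genes of EL4-like cells, -168 and -1863 for those of IVA12-like cells, and 297 for clustered genes of Jurkat-like cells. Outside mitochondrial and ribosomal protein genes it was 1426 and -4774 in EL4-like, -5489 for variant genes of IVA12-like cells and 2638 for clustered genes of Jurkat-like cells. This setting divides the same histone UMIs by a smaller total, so every level rises and larger differences follow from the scale. The limit of 1 SD was that of the full total. In TALL-104-like cells the clustered difference ran from -3.33 to 149 CPM without single libraries.

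Among the genes named by the rule, 6 called values had the other sign: Hist2h2ac between the mouse lines in 3′ v3 alone (0.54); Hist4h4 in EL4-like (-0.49), Hist1h1e in IVA12-like (0.38) and H3F3A in Jurkat-like cells (-0.32) between kits with replicates 2 and 4; and HIST1H2BC (-0.42) and HIST1H1B (-1.17) in Jurkat-like cells with replicates 1 and 3. None of these 6 was called with all libraries. No paired analysis was possible because replicate numbers are only names between kits; between lines and tertiles the library was the block. Depth limits TALL-104-like cells most, where 12 clustered genes could be tested between kits.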
